A study of Mus musculus with 8 samples.

Results

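The 10 genes described here are known from work on olfactory and vomeronasal neurons as regulators of chemoreceptor gene choice. They were taken by name from a fixed list after identifiers were matched to GENCODE M21 symbols, and they are 10 of the 48831 genes counted. All 10 passed the filter on low counts, which left 20601 genes for testing. They comprise the transcription factor genes Lhx2, Emx2, Ebf1 and Ebf2, the cofactor gene Ldb1, the chromatin genes Kdm1a, Lbr and Cbx5, and the receptor transport genes Rtp1 and Rtp2. Whole-tissue polyA RNA was sequenced from vomeronasal epithelium, the sensory lining of the pheromone-detecting organ, of C57BL/6J mice at an age of 8 weeks. There were 8 libraries in 4 groups of 2: male and female pools of 2 mice each, described as non-flushed, and flushed single males and single females. Flushing clears blood from the vessels. The protocol attached to all 8 labels describes flushing with heparin, which goes against the description of each pool as non-flushed; that description was followed. The pools and the flushed mice also came from different run folders and lanes, per the file headers, so preparation, pooling and run cannot be told apart.

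Each mature olfactory or vomeronasal sensory neuron transcribes a very small number of receptor genes from large families. In the main olfactory epithelium the silent receptor genes lie in compact heterochromatin, and the homeodomain protein Lhx2, the EBF proteins and the bridging protein Ldb1 gather enhancers around the chosen gene. The demethylase encoded by Kdm1a acts when a first receptor allele is activated, and its later down-regulation stabilises the choice. Lbr holds heterochromatin at the nuclear envelope of many cell types and is low in mature olfactory neurons. Rtp1 and Rtp2 encode membrane proteins that help odorant receptors to reach the cell surface. These roles are background from other tissues and were not measured here.

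Pools had total counts of 18763557 to 22096792, and flushed mice 22101913 to 24965088. Counts of the regulators ranged from 191 for Emx2 to 3996.5 for Cbx5 in a library. The labelled tissue was checked by its markers. Omp, a protein of mature chemosensory neurons, was at 340.9 to 484.4 CPM (the count scaled by the TMM-adjusted library size) in the 8 libraries. Summed CPM of the 6 vomeronasal neuron markers was 1126 to 1300 in the pools and 1046 to 1152 in the flushed mice. Trpc2, the channel gene that defines these neurons, was listed at 0 in every library. Its exons overlap the locus Xntrpc on the same strand, which had 416 to 692 counts, and reads that overlap more than 1 gene were not counted. The progenitor gene Neurog1 had at most 8 counts in a library and was not tested. Markers of other cells moved with preparation. The sum of the 5 red cell markers was 983.8 to 1236 CPM in the pools and 64.9 to 361.0 in the flushed mice. The sums of 7 fibroblast markers were 35538 to 46192 against 16956 to 22588 CPM. Those of 6 proliferation markers were 85.3 to 130.7 against 52.4 to 100.4, and these ranges overlapped. The 5 bone markers summed to 697.8 to 725.8 CPM in the pools and 376.5 to 559.8 in the flushed mice. Of these 5, 4 were lower in flushed mice, while Ibsp was not (log2 0.04, edgeR adjusted p = 0.77). Of single markers, Hba-a1 of red cells was at 352.1 to 419.9 CPM in the pools and 21.1 to 140.7 in the flushed mice, and S100a9 of neutrophils at 87.0 to 149.7 against 14.3 to 67.8. The sums of immature neuron markers (6 genes, 435.5 to 489.7 against 389.9 to 446.5 CPM) and supporting cell markers (5 genes, 1248 to 1333 against 1002 to 1535) overlapped too, as did those of the vomeronasal neuron markers. Of the 6 immature neuron markers, 1 was higher in flushed mice and 3 lower (edgeR adjusted p under 0.05). Dcx rose from a mean of 12.0 to 22.7 CPM, while Gap43, Tubb3 and Stmn1 fell. After the GC and length correction given below, Dcx was still higher (log2 0.38) and Stmn1 lower (-0.22). Of the 5 supporting cell markers, 1 was higher and 1 lower, and none of either after that correction. In such bulk tissue, fewer cells of a type and less RNA per cell cannot be told apart.

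Levels were compared between genes per exon length, as RPKM. Rtp1 and Rtp2 had the highest levels of the 10, with means of 37.2 ± 4.49 and 24.1 ± 2.61 RPKM (SD, n = 8 libraries), above 95.6% and 92.3% of tested genes. Ldb1, Kdm1a, Cbx5, Lbr and Ebf1 formed a middle group at 16.6 ± 3.29, 15.4 ± 0.835, 14.5 ± 2.31, 12.7 ± 1.12 and 12.0 ± 1.36 RPKM. Ebf2 followed at 8.95 ± 1.06 RPKM, then Lhx2 at 4.51 ± 0.572 and Emx2 at 3.38 ± 0.324 RPKM, near the middle of all tested genes (55.8 and 48.2% lay below). The order within the middle group was not fixed. Ldb1 exceeded Kdm1a in 4 of 8 libraries, which were the pools (means of 19.5 and 14.7 RPKM). In the flushed libraries Ldb1 lay below Kdm1a (13.7 and 16.0 RPKM). Kdm1a exceeded Cbx5 in 5, the pools and flushed female 2. Cbx5 exceeded Lbr in 6, and Lbr exceeded Ebf1 in 4. Outside it, each gene exceeded the next in all 8 libraries, although the ranges of Rtp2 and Ldb1, and of Ebf1 and Ebf2, overlapped across libraries. Among paralogs, Ebf1 was 1.26 to 1.44 times as high as Ebf2 and Rtp1 1.34 to 1.75 times as high as Rtp2 in RPKM.

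**Figure D1:**
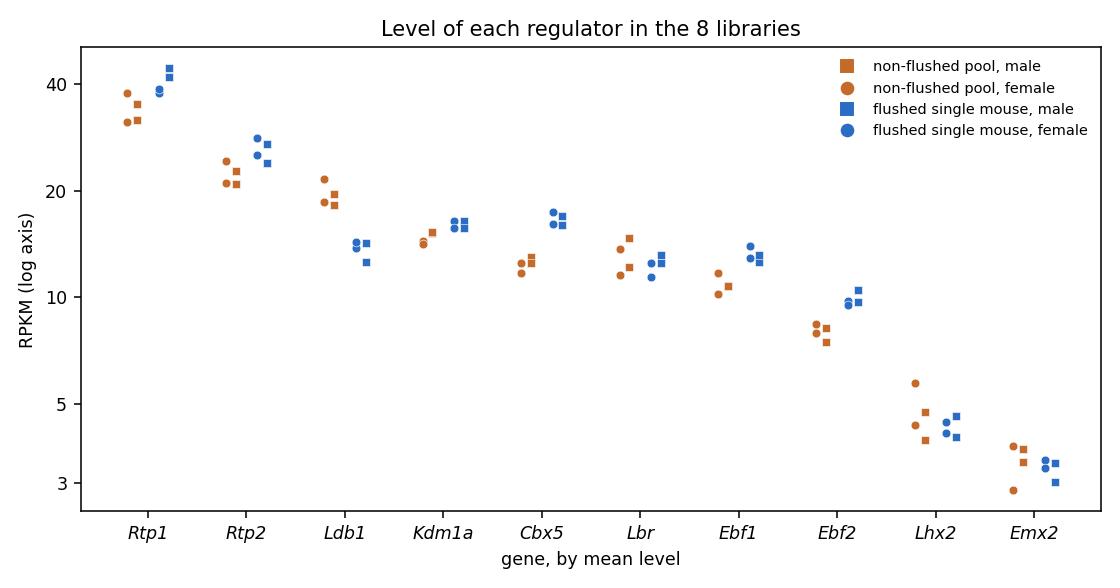
Level of the 10 regulators as RPKM on a log axis, with 1 point per library, colour for preparation and shape for sex. Rtp1 and Rtp2 lie highest, Lhx2 and Emx2 lowest, and the libraries of the 2 preparations do not overlap for Ldb1, Cbx5, Ebf1, Ebf2, Kdm1a and Rtp1.

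The comparison of flushed mice with pools asked which regulators differed with the preparation of the tissue. Of the 10 regulators, 6 passed the edgeR test (adjusted p under 0.05), with Ebf1, Ebf2, Cbx5, Rtp1 and Rtp2 higher and Ldb1 lower in flushed tissue. So many genes differed that this share is not a result about the regulators. Across all tested genes 45.5% passed, 22.6% higher and 22.9% lower. The CPM of the 4 flushed and the 4 pooled libraries did not overlap for 6 regulators, against 41.7% of all genes. The median log2 difference (flushed minus pool) was 0.18 over the 10 and -0.017 over all tested genes. With total counts in place of TMM scaling the median of all genes moved to 0.095, and 68.0% of the genes that passed were higher in flushed tissue, against 49.7% with TMM. On that scale 7 regulators passed, with Kdm1a (0.23, edgeR adjusted p = 0.0038) added to the 6.

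The difference between preparations followed the GC content of the transcripts. Among genes split by GC content into 5 groups of equal size, the median log2 difference was lower with each step, from 0.50 in the lowest group through 0.17, -0.02 and -0.20 to -0.36 in the highest. The end groups were set apart in each library. In the lowest group the median deviation from the gene means was -0.27 to -0.19 in the pools and 0.17 to 0.24 in the flushed libraries, and in the highest group it was 0.10 to 0.25 against -0.18 to -0.15. The sex difference had no such order, with group medians between -0.01 and 0.00. The regulators span this range, from Cbx5 at 42.6% GC and Ebf1 at 43.1% to Ldb1 at 57.9% and Lhx2 at 58.5%. A correction for transcript GC content and exon length was therefore added after the data were seen, and its value stands beside each gene. After it, 22.4% of all genes passed, 11.3% higher and 11.1% lower, with a median of 0.01. The medians of the GC groups lay between 0.00 and 0.02, which the correction brings about because it was fitted to these libraries. Of the regulators 4 passed, Kdm1a, Rtp1 and Rtp2 higher and Lbr lower in flushed tissue. What sets the dependence on GC content was not tested.

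**Figure D2:**
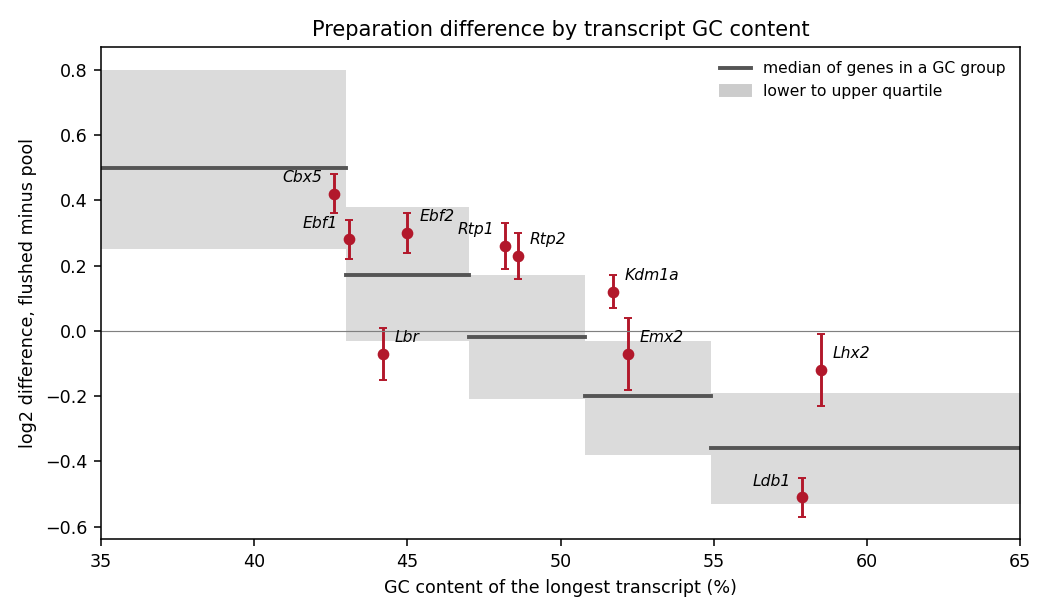
The log2 difference between flushed mice and pools against transcript GC content in percent, drawn from 35 to 65%. Grey bands run from the lower to the upper quartile of the genes in each of 5 GC groups and dark lines mark their median, which goes from 0.50 to -0.36. Red points are the regulators with their SE; Cbx5, Ebf1, Ebf2, Emx2 and Ldb1 lie within the band of their group Rtp1, Rtp2, Kdm1a and Lhx2 above it, and Lbr below it.

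**Figure D3:**
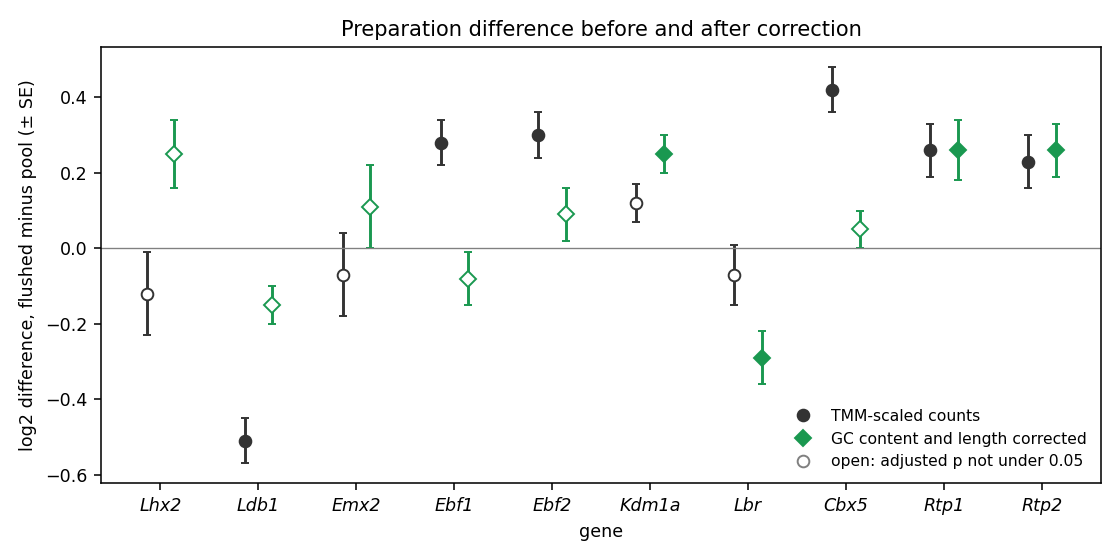
The log2 difference between flushed mice and pools with its SE for each regulator, from TMM-scaled counts (black) and after correction for GC content and length (green); filled symbols passed the edgeR test. Rtp1 and Rtp2 have nearly the same value in both, while Ldb1, Ebf1, Ebf2 and Cbx5 move towards 0.

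Among the transcription factors and their cofactor, Ldb1 had the largest difference with TMM scaling, and Lhx2 after the correction. It encodes the LIM-domain binding protein that joins Lhx2-bound enhancers to each other and to promoters. The gene (ENSMUSG00000025223, GRCm38 chromosome 19, 46032593 to 46045214, minus strand) has 10 merged exons, which overlap exons of Pprc1 on the other strand. Ldb1 was at 65.3 and 70.2 CPM in the male pools, 66.5 and 77.4 in the female pools, 49.3 and 51.1 in the flushed females and 45.3 and 50.8 in the flushed males. Every flushed library lay below every pool. The means were 69.8 ± 5.42 CPM in pools and 49.1 ± 2.67 in flushed mice (SD, n = 4), a 1.42-fold lower level (log2 difference -0.51, SE 0.06, edgeR adjusted p = 0.00021). It was lower within females (-0.52, edgeR adjusted p = 0.0058) and within males (-0.50, edgeR adjusted p = 0.0078), and it passed without any single library. After the GC and length correction the difference was -0.15 (SE 0.05, edgeR adjusted p = 0.061), which did not pass. Ldb1 lay at the 27.8th percentile of the differences in its GC group. Between preparations the red cell marker sums given above moved the same way as Ldb1, which also acts in red cell precursors. In the flushed mice these sums were 67.8 and 64.9 CPM in females and 358.0 and 361.0 in males. Ldb1 was no higher in those males. The part of red cells in the result was not tested.

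Lhx2 (ENSMUSG00000000247, chromosome 2, 38339281 to 38369733, plus strand) encodes the LIM-homeodomain factor that binds receptor gene enhancers. Its levels were 17.3 and 20.8 CPM in the male pools, 19.2 and 25.2 in the female pools, 19.6 and 18.2 in the flushed females and 20.3 and 17.7 in the flushed males. Both preparations overlapped fully, with the highest value in a female pool. The log2 difference was -0.12 (SE 0.11, edgeR adjusted p = 0.39), and after correction 0.25 (SE 0.09, edgeR adjusted p = 0.069), so its sign turned. Since Ldb1 and Lhx2 act in 1 complex and have nearly equal GC content, their ratio was also described, with no test. In RPKM, Ldb1 was 3.76 to 4.62 times as high as Lhx2 in the 4 pools and 2.73 to 3.51 times as high in the 4 flushed libraries. This ratio is of RNA from whole tissue and does not describe the complex in any cell type.

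Emx2 (ENSMUSG00000043969, chromosome 19, 59458372 to 59465357, plus strand) encodes a homeodomain factor that broadens the set of odorant receptor genes expressed, and its exons overlap the antisense gene Emx2os, which stranded counting keeps apart. Emx2 stood at 10.3 and 11.2 CPM in the male pools, 8.59 and 11.4 in the female pools, 10.4 and 9.91 in the flushed females and 9.04 and 10.3 in the flushed males. The groups overlapped. Its log2 difference was -0.07 (SE 0.11, edgeR adjusted p = 0.65) and 0.11 after correction (SE 0.11, edgeR adjusted p = 0.49).

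Ebf1 and Ebf2 encode helix-loop-helix factors of the Olf/Ebf family, whose sites lie beside homeodomain sites at many olfactory promoters. Both were higher in flushed tissue with TMM scaling, and neither passed after correction, where the sign of Ebf1 turned. Ebf1 (ENSMUSG00000057098, chromosome 11, 44617317 to 45008091, plus strand, 17 merged exons) was at 105.1 and 105.0 CPM in the male pools, 99.7 and 114.2 in the female pools, 136.7 and 125.6 in the flushed females and 122.5 and 128.8 in the flushed males. All flushed libraries lay above all pools (1.21-fold, log2 0.28, SE 0.06, edgeR adjusted p = 0.0038). Within males alone the difference was 0.26 (edgeR adjusted p = 0.064), and after correction it was -0.08 (SE 0.07, edgeR adjusted p = 0.47). Ebf1 is also a B cell factor. The sum of 7 B cell markers was 11.7 to 16.9 CPM in the pools and 4.29 to 10.9 in the flushed mice, and the part of these cells in the Ebf1 value was not tested.

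Ebf2 (ENSMUSG00000022053, chromosome 14, 67233292 to 67430918, plus strand, 17 merged exons) was at 51.9 and 56.8 CPM in the male pools, 55.2 and 58.5 in the female pools, 67.7 and 66.0 in the flushed females and 67.2 and 72.7 in the flushed males. The groups did not overlap (1.23-fold, log2 0.30, SE 0.06, edgeR adjusted p = 0.0021). Within females alone the value was 0.24 (edgeR adjusted p = 0.061), and after correction 0.09 (SE 0.07, edgeR adjusted p = 0.33). Ebf1 and Ebf2 lay at the 63.9th and 66.4th percentile of their GC group.

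The partners of these factors, from lists chosen by known function, divided in both directions. Of 4 EBF paralogs and zinc finger partners, Ebf3 rose (56.0 ± 4.16 to 67.3 ± 6.39 CPM, SD, n = 4, log2 0.26, edgeR adjusted p = 0.021), while Zfp521 and Zfp423, whose proteins bind EBF factors and restrain them, fell (-0.29 and -0.41). After correction Ebf3 (0.24) and Zfp521 (-0.25, edgeR adjusted p = 0.015) still passed and Zfp423 (-0.11) did not. Of 8 tested partners of Ldb1, 1 rose and 3 fell (median -0.20), and after correction none rose and 1 fell, Ldb2, named after its values were seen. Rlim, a ubiquitin ligase that removes Ldb proteins, rose from 110.3 ± 6.88 to 156.0 ± 6.07 CPM (log2 0.50, edgeR adjusted p = 0.00018) but had 0.02 after correction. Ssbp4, of the single-strand binding family that protects Ldb1, was lower by 0.61 on the log2 scale in flushed tissue (edgeR adjusted p = 0.0015), and Lmo2, a LIM-only partner in blood cells, by 0.49 (edgeR adjusted p = 0.0048). Neither passed after correction, with -0.14 and -0.23.

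Of 17 other transcription factors of chemosensory neurons, 6 rose and 3 fell (median 0.00), and after correction 2 rose and 3 fell. Nfix, a nuclear factor I gene, went from -0.48 (edgeR adjusted p = 0.00018) to -0.19 (edgeR adjusted p = 0.06).

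Among the chromatin factors, Cbx5 passed with TMM scaling and all libraries, and Kdm1a and Lbr passed after the correction. Kdm1a also passed with total counts, as given above, and without flushed male 3 (log2 0.14, edgeR adjusted p = 0.048). Cbx5 (ENSMUSG00000009575, chromosome 15, 103191544 to 103239816, minus strand, 7 merged exons) encodes a heterochromatin protein that reads methylated histone tails. It was at 116.6 and 112.8 CPM in the male pools, 112.5 and 105.4 in the female pools, 145.1 and 156.5 in the flushed females and 153.1 and 143.8 in the flushed males. The groups were well apart (111.8 ± 4.70 against 149.6 ± 6.19 CPM, SD, n = 4, 1.34-fold, log2 0.42, SE 0.06, edgeR adjusted p = 0.00027). Cbx5 has the lowest GC content of the 10 and lay at the 41.2nd percentile of its GC group. After correction its difference was 0.05 (SE 0.05, edgeR adjusted p = 0.52).

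Kdm1a (ENSMUSG00000036940, chromosome 4, 136550540 to 136602723, minus strand, 20 merged exons) encodes the lysine demethylase LSD1. It was at 78.9 and 79.1 CPM in the male pools, 74.5 and 73.1 in the female pools, 84.7 and 81.1 in the flushed females and 85.0 and 81.4 in the flushed males. The flushed libraries lay narrowly above the pools (1.09-fold, log2 0.12, SE 0.05), and the difference did not pass (edgeR adjusted p = 0.066). At 51.7% GC, where the typical gene was lower in flushed tissue, Kdm1a lay at the 87.6th percentile of its GC group. After correction it was higher in flushed tissue (73.1 ± 3.14 against 86.8 ± 2.65 corrected CPM, log2 0.25, SE 0.05, edgeR adjusted p = 0.0065). This call held without any single library (edgeR adjusted p = 0.008 to 0.027), which no other regulator did after correction.

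Lbr (ENSMUSG00000004880, chromosome 1, 181815335 to 181843046, minus strand, 17 merged exons) encodes the lamin B receptor of the inner nuclear membrane. Its exons overlap Dnah14 on the other strand and Gm26004 on the same strand, where reads over both genes were not counted. Lbr was at 57.9 and 70.2 CPM in the male pools, 65.0 and 55.2 in the female pools, 54.0 and 59.4 in the flushed females and 63.0 and 59.6 in the flushed males. The groups overlapped (log2 -0.07, SE 0.08, edgeR adjusted p = 0.45). After correction the pools were at 60.6 to 76.7 and the flushed libraries at 50.1 to 57.7 corrected CPM, a log2 difference of -0.29 (SE 0.07, edgeR adjusted p = 0.020). This call was lost in 4 of 8 fits with 1 library left out, without male pool 2 (edgeR adjusted p = 0.061), female pool 1 (0.055), flushed female 2 (0.071) or flushed male 3 (0.055). Lbr is also needed for the lobed nuclei of neutrophils. The sum of 11 neutrophil markers was 8833 to 11984 CPM in the pools and 6728 to 9159 in the flushed mice, nearly all of it from Ltf (1.32-fold lower), which glands also make. Of the 11 markers 9 fell, and 5 after correction, with S100a9 lower by 4.25-fold, Camp by 5.44-fold and Ngp by 4.93-fold. The part of neutrophils in the Lbr value was not tested. The ratio of Cbx5 to Lbr in RPKM was 0.85 to 1.07 in the pools and 1.28 to 1.42 in the flushed mice, before correction.

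The LSD1 and CoREST complex list held 12 genes, of which 2 rose and 5 fell (median -0.02), and 2 and 2 after correction (median 0.00). Rcor2, a CoREST scaffold gene, fell from 9.56 ± 1.61 to 4.83 ± 0.392 CPM (1.98-fold, log2 -0.98, SE 0.13, edgeR adjusted p = 0.00029), and by 0.55 on the log2 scale after correction (edgeR adjusted p = 0.01). Its paralog Rcor3 rose (0.63, edgeR adjusted p = 8.4e-05, and 0.27 after correction, edgeR adjusted p = 0.0078). Zmym2, a zinc finger member of the complex, rose by 0.75 (edgeR adjusted p = 4.1e-05) and by 0.17 after correction (edgeR adjusted p = 0.049). Of 16 heterochromatin writers and readers, 4 rose and 5 fell (median -0.01), and none rose and 5 fell after correction (median 0.04). The DNA methyltransferase genes Dnmt3a (-0.39, edgeR adjusted p = 0.00018) and Dnmt1 (-0.46, edgeR adjusted p = 0.00021) were lower in flushed tissue and passed again after correction (-0.36 and -0.26). Smchd1, a structural chromatin protein gene, went from 0.50 (edgeR adjusted p = 0.00024) to 0.05. Of 12 nuclear lamina and inner membrane genes, 4 fell and none rose (median -0.13), and 2 rose and 2 fell after correction (median -0.05). The lamin genes Lmna (255.6 ± 18.9 to 169.1 ± 5.01 CPM, log2 -0.60), Lmnb2 (-0.59) and Lmnb1 (-0.58) all fell (edgeR adjusted p = 0.0001, 0.00026 and 0.0026). After correction Lmna (-0.42) and Lmnb2 (-0.24) passed and Lmnb1 (-0.36, edgeR adjusted p = 0.052) did not. Of 7 fibroblast markers, 4 fell, led by the collagen genes that make up most of their sum (Col1a1 by 2.46-fold), while Dcn and Lum rose (log2 0.28 and 0.32). After correction 5 of the 7, Dcn among them, fell and none rose. Of 6 proliferation markers 3 fell, and 4 after correction, with Mki67 at -0.89 and -1.04. The part of these cells in the values of the chromatin genes was not tested.

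For the receptor transport genes Rtp1 and Rtp2, TMM scaling and the correction gave nearly the same values. At 48.2 and 48.6% GC, both lie in the middle GC group, whose median was -0.02 before and 0.01 after correction. The correction moves the typical gene there little, so the near-equal values say little about these genes. Rtp1 (ENSMUSG00000033383, chromosome 16, 23429133 to 23433960, plus strand, 2 exons) and Rtp2 (ENSMUSG00000047531, chromosome 16, 23925548 to 23930787, minus strand, 2 exons) lie 491.6 kb apart, with the protein-coding genes Masp1, Rtp4 and Sst between them. Rtp1 was at 99.0 and 109.2 CPM in the male pools, 97.8 and 117.2 in the female pools, 117.7 and 120.5 in the flushed females and 138.0 and 130.0 in the flushed males. The lowest flushed value lay just above the highest pool. The difference was 1.19-fold (log2 0.26, SE 0.07, edgeR adjusted p = 0.018), and 0.26 after correction (SE 0.08, edgeR adjusted p = 0.036). It was lost without female pool 1 (edgeR adjusted p = 0.063) or flushed male 1 (0.067). After correction it passed in only 1 of 8 fits with a library left out, that without female pool 2 (edgeR adjusted p = 0.006; 0.054 to 0.11 in the others). Within males the value was 0.36 (edgeR adjusted p = 0.028) and within females 0.15 (edgeR adjusted p = 0.30).

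Rtp2 was at 50.7 and 55.0 CPM in the male pools, 50.8 and 58.8 in the female pools, 67.9 and 61.1 in the flushed females and 65.6 and 57.8 in the flushed males. Female pool 2 exceeded flushed male 3, so the groups overlapped. The difference was 1.17-fold (log2 0.23, SE 0.07, edgeR adjusted p = 0.021), and 0.26 after correction (SE 0.07, edgeR adjusted p = 0.022). It passed neither within females (0.24, edgeR adjusted p = 0.12) nor within males (0.22, edgeR adjusted p = 0.15). It was lost without female pool 1 (edgeR adjusted p = 0.068), flushed female 2 (0.081) or flushed male 1 (0.075). After correction it was lost in 4 fits, without male pool 1 (edgeR adjusted p = 0.067), female pool 1 (0.058), flushed female 2 (0.075) or flushed male 1 (0.060).

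Rtp1 and Rtp2 are also genes of main olfactory neurons, which a dissection can carry along. Cnga2, the channel gene of those neurons, was at 3.68 and 1.61 CPM in the male pools, 3.54 and 1.23 in the female pools, 1.68 and 6.42 in the flushed females and 9.79 and 0.90 in the flushed males. Gnal (2.43 to 12.4 CPM) and Stoml3 (1.71 to 11.6 CPM) were likewise highest in flushed female 3 and flushed male 1 and lowest in flushed male 3. The sum of the 6 main olfactory markers was 163.6 to 180.6 CPM in the pools and 135.7 to 184.3 in the flushed mice. Most of this sum came from Ano2, Adcy3 and Cngb1 in every library. These genes varied less between libraries than Cnga2, Gnal and Stoml3. The overlapping sums therefore cannot show whether the share of main olfactory neurons was equal. The part of main olfactory neurons in the Rtp1 and Rtp2 values was not tested.

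**Figure D4:**
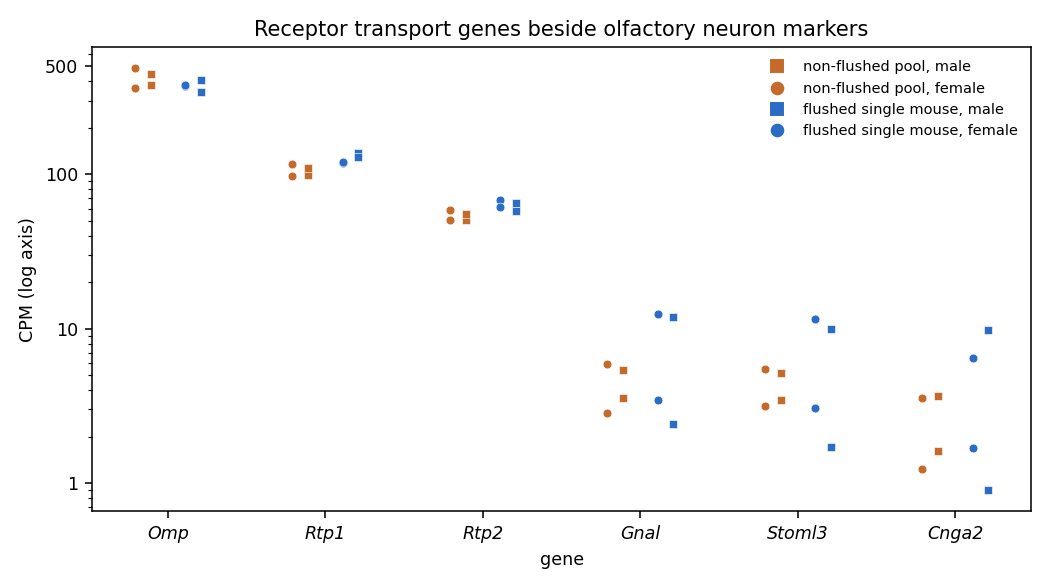
CPM of Rtp1 and Rtp2 on a log axis beside Omp, a marker of mature chemosensory neurons, and the main olfactory neuron markers Gnal, Stoml3 and Cnga2, with 1 point per library. Cnga2 ranges from 0.90 to 9.79 CPM, Rtp1 from 97.8 to 138.0 and Rtp2 from 50.7 to 67.9.

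Of the 8 tested transport paralogs and partners, 3 rose and none fell (median 0.08), and 2 rose and none fell after correction (median 0.15). Reep1, a receptor expression-enhancing protein gene, rose from 38.1 ± 4.77 to 52.5 ± 4.71 CPM (SD, n = 4, log2 0.47, SE 0.09, edgeR adjusted p = 0.0023) and had 0.52 after correction (edgeR adjusted p = 0.0043). Ric8b, the exchange factor that stabilises the olfactory G protein, rose by 0.38 (edgeR adjusted p = 0.0081) and by 0.26 after correction (edgeR adjusted p = 0.048). Reep3 rose by 0.22 (edgeR adjusted p = 0.018) and had -0.10 after correction. Rtp4, which lies between Rtp1 and Rtp2, differed by 0.04 (SE 0.15, edgeR adjusted p = 0.86).

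The feedback by which a first receptor is thought to stabilise its own choice runs through the unfolded protein response. Of its 9 listed genes, 1 rose and 5 fell (median -0.18), and 1 rose and 4 fell after correction (median -0.09). Ppp1r15a, the phosphatase subunit that ends the response, fell from 37.0 ± 4.32 to 23.8 ± 1.16 CPM (log2 -0.64, SE 0.09, edgeR adjusted p = 0.00031) and by 0.33 on the log2 scale after correction (edgeR adjusted p = 0.013). Atf5, the transcription factor at its centre, fell by 0.50 on that scale (edgeR adjusted p = 0.0027) and had -0.03 after correction at 61.7% GC. Adcy3, the cyclase of main olfactory neurons, went from -0.38 (edgeR adjusted p = 0.0046) to -0.09. Of 10 chromosome architecture genes, 4 rose and 1 fell (median 0.10), and none rose and 3 fell after correction (median -0.02). The cohesin regulator Wapl (0.54, edgeR adjusted p = 6.5e-05), the subunit Stag2 (0.70, edgeR adjusted p = 8.7e-05) and the loader Nipbl (0.52, edgeR adjusted p = 0.00027) all rose. Their corrected values were 0.12, 0.02 and 0.14, none of which passed. Over all 9 lists, 22 of 96 tested genes rose and 28 fell, 10 rose and 21 fell after correction, and 20 passed in both. Beside them, 22.6% of all tested genes were higher and 22.9% lower, and 11.3 and 11.1% after correction. The share of list genes that rose was near that of all genes, and the share that fell was above it, most clearly after correction. The lists were chosen with earlier results of these data known and no test over them was made, so these counts are a description.

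**Figure D5:**
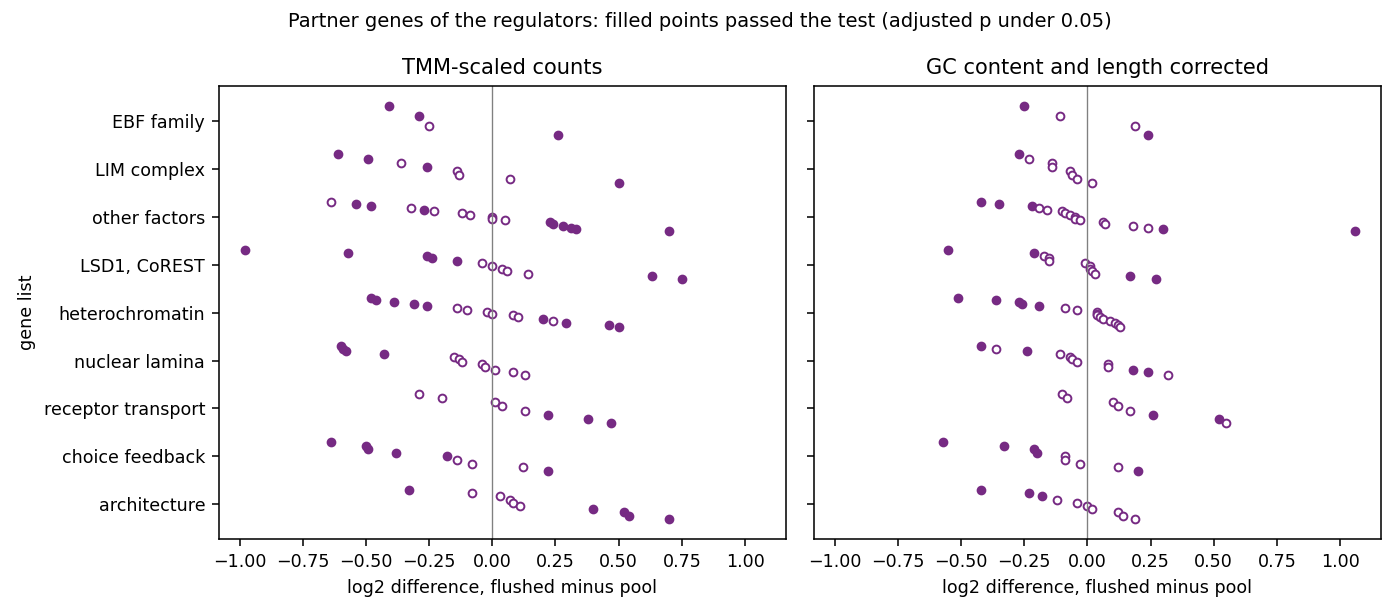
Each point is a gene of the 9 partner lists, placed by its log2 difference between flushed mice and pools, from TMM-scaled counts (left) and after correction for GC content and length (right); filled points passed the edgeR test. The architecture genes that rose on the left lie near 0 on the right.

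The second comparison asked whether the regulators differ between the sexes. None of the 10 passed, and the CPM of the 4 male and the 4 female libraries overlapped for every regulator. In the edgeR fit 0.116% of all genes passed. The log2 differences (male minus female) ran from -0.10 for Lhx2 (20.6 ± 3.18 CPM in females, 19.1 ± 1.77 in males, SD, n = 4, SE 0.11) to 0.10 for Lbr (58.4 ± 4.97 and 62.7 ± 5.44 CPM, SE 0.08). The smallest adjusted p was 0.80, none was under 0.05 unadjusted, and DESeq2 and limma-voom also called 0. For Cbx5 the means were 129.9 ± 24.8 CPM in females and 131.6 ± 19.9 in males (log2 0.03, SE 0.06), and for Rtp1 113.3 ± 10.4 and 119.0 ± 18.1 (0.06, SE 0.07). Of the 96 partner genes edgeR and limma-voom called 0, with 8 at an unadjusted p under 0.05, and DESeq2 called 1, Nfix (DESeq2 adjusted p = 0.029), named after its values were seen. In the interaction edgeR, limma-voom and DESeq2 called 0 of them, with 1, 1 and 0 at an unadjusted p under 0.05.

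The interaction asked whether the preparation difference was unequal in males and females. No regulator passed, against 0.0485% of all genes with edgeR, none was under 0.05 unadjusted, and DESeq2 and limma-voom called 0. The values ran from -0.18 for Emx2 (SE 0.22) to 0.23 for Lhx2 (SE 0.22), with 2 libraries in each group. For Rtp1, whose preparation difference passed within males and not within females, the difference between the sexes was 0.22 (SE 0.14, unadjusted p = 0.16 in edgeR).

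The promoters of Ldb1, Cbx5 and Rtp2 are shown because these are the regulator with the largest fall with TMM scaling, that with the largest rise and the transport gene with a RefSeq entry. The RefSeq table (GRCm38.p6) had 13 entries for 8 of the regulators. Each sequence is the 250 bases before the most upstream start, 5′ to 3′ on the gene's strand, with CpG dinucleotides in capitals. They lie at chr19:46045312-46045561, chr15:103239853-103240102 and chr16:23930795-23931044, all on the minus strand.
Ldb1: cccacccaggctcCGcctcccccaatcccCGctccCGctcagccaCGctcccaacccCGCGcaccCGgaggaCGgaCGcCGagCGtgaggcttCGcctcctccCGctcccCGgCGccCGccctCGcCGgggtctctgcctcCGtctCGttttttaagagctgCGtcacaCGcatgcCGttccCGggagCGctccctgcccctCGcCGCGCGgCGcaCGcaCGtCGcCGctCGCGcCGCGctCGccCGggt
Cbx5: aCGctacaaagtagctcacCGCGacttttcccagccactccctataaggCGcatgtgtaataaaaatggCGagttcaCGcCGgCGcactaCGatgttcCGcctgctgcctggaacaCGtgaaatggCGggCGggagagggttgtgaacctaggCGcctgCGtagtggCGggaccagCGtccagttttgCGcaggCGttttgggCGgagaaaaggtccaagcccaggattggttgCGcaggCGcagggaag
Rtp2: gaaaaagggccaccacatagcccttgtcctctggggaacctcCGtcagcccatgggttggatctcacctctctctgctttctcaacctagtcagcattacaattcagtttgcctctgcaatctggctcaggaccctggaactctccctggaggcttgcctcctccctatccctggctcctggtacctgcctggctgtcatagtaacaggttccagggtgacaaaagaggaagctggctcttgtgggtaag
The Ldb1 promoter holds 40 CpG dinucleotides and that of Cbx5 22, against a median of 6 over all 32851 RefSeq promoters (quartiles 2 and 16). Rtp2 has 1, at the 7.87th percentile. The promoters of Lhx2, Emx2, Kdm1a and Lbr hold 25, 24, 21 and 31, and that of Ebf1 holds 9. In windows of 300 bases (250 before to 50 after the start), the EBF core TCCCNNGGG, searched on both strands, was in none of the 13 entries and in 6.56% of all promoters. The homeodomain core TAATTA, which is its own reverse complement and does not overlap the EBF core, was in 1 of the 13 entries, that of Emx2, and in 5.29% of all. These letters say nothing of binding.

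For the 3 regulators with the largest difference that passed, the genes with the most similar profile over the 8 libraries were looked up among 11662 genes (root-mean-square difference of centred log2(CPM + 0.5) values). They were Sh3gl1, Fbf1 and Pacsin3 for Ldb1 (0.034 to 0.044), Nabp1, Txndc16 and Ints2 for Cbx5 (0.020 to 0.034), and Rasal2, Hecw2 and E130307A14Rik for Ebf2 (0.034 to 0.040). Their transcripts had 51.8 to 58.8% GC beside Ldb1, 41.9 to 44.8% beside Cbx5 and 43.7 to 46.9% beside Ebf2. This is a description over libraries that share preparation, and no test was made.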

How the data were processed

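Per the submitters' processing notes, alignment was by STAR 2.7.1a (GRCm38, mm10) and counting by featureCounts 1.6.5. The files deposited by the authors hold expected counts, per the file headers: reads on the reverse strand over exons of an Ensembl annotation with the authors' changes, with multiply aligned reads split into fractions and reads over more than 1 gene left out. Such fractions gave 10.16 to 11.79% of all genes in a library a count that was not whole, among the regulators mainly Ebf1 (6 libraries) and Cbx5 (3). Of 48831 identifiers, 48422 matched GENCODE M21. Replicates were separate mice or pools, per the labels. Each replicate pair was checked and differed by more than sampling noise.

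Counts were rounded and tested with edgeR 4.0.16 (R 4.3.3; quasi-likelihood F test, TMM, filterByExpr, sex and preparation additive, interaction in a further fit), with Benjamini-Hochberg adjustment over 20601 genes and a threshold of 0.05. Every adjusted p is from this test unless another tool is named. CPM are unrounded counts over the TMM-scaled library size, and RPKM also divide by exon length. The correction, added after the data were seen, fitted splines (5 degrees of freedom) of GC content and length per library as offsets. GC content was that of the longest transcript, and length was the exon length used for RPKM. A GC value was known for 20476 genes, and the others were given the median. Alternatives were DESeq2 1.42.0, limma-voom 3.58.1, other scalings, no filter, subsets, and 1 library left out. The fit was tested on simulated data. From each partner list, up to 3 genes with the smallest p among those that passed were named, as were the 3 most similar profiles of 3 regulators and, in part, the first 2 markers of each cell type. Some genes that this rule takes are not reported here. The regulators, lists and rules were chosen with earlier results of these data known.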

Additional observations from a re-analysis of the deposited data

Results flagged for a closer look

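Rtp1 in the 4 female libraries had a low value of 97.8 CPM in female pool 1, while the other three lay at 117.2 to 120.5 CPM. These 4 libraries mix pools with flushed mice, in which Rtp1 was higher, so they are not a uniform group. Male pool 1 was nearly as low, at 99.0 CPM. Among the female libraries, the gap from female pool 1 to the nearest value was 0.856 of the range, above the critical value of Dixon's test for 4 samples. Of 40 such groups examined this was the only gap past that value, and chance flags about 1 in 20 groups.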

How the results depend on the processing

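For the preparation difference, 6 regulators passed with DESeq2, limma-voom, other size factors, upper-quartile scaling, no filter and without receptor genes, 7 with total counts, 3 within females (5533 genes in all) and 4 within males (5086 genes), where fewer libraries were compared. With 1 library left out, 4 to 7 regulators and 7734 to 9047 genes passed. Ldb1, Ebf1, Ebf2 and Cbx5 passed in all 8 of these fits, and Kdm1a passed without flushed male 3. The GC and length correction left 4613 genes, and 2831 to 3947 genes and 1 to 5 regulators with 1 library left out as well. Under it the sign turned for Lhx2 (0.25; 0.19 to 0.32 with 1 library left out), Emx2 (0.11; 0.01 to 0.17) and Ebf1 (-0.08; -0.14 to -0.01), against -0.19 to -0.02, -0.18 to -0.00 and 0.22 to 0.31 with 1 library left out and no correction. Emx2 was also above 0 with total counts (0.05) and within females (0.02), and Lbr with total counts (0.04), while Lbr ranged from -0.36 to 0.00 over all fits without 1 library.

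No value of a regulator by sex passed, so turns of sign there are small values around 0, and their cause was not tested. With total counts they were Emx2 -0.10, Ebf2 -0.12, Kdm1a -0.07, Lbr -0.02, Cbx5 -0.09 and Rtp1 -0.05. Within flushed mice they were Lhx2 0.01, Emx2 -0.08 and Cbx5 -0.02, and within pools Ebf2 -0.06 and Rtp1 -0.05. Ebf2 was -0.00 with upper-quartile scaling and with no filter and -0.01 after correction. With 1 library left out the ranges were -0.16 to 0.01 for Lhx2, -0.08 to 0.08 for Emx2 and -0.03 to 0.04 for Ebf2. Genes passing by sex numbered 24, 124 with DESeq2, 784 with no filter, 7 within pools, 3 without X and Y genes and 8 to 25 with 1 library left out. In the interaction 10 passed, 28 with DESeq2, 263 with no filter and 4 to 18 with 1 library left out. Turned signs there were Ldb1 -0.02 and Rtp2 0.01 after correction, and Ebf1 0.03 and Rtp2 0.05 with total counts. The ranges with 1 library left out were -0.10 to 0.13 for Ldb1, -0.42 to 0.01 for Emx2, -0.15 to 0.06 for Ebf1, -0.13 to 0.15 for Lbr and -0.13 to 0.09 for Rtp2.

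TPM kept the order of levels, on a higher scale. No paired analysis was possible because the pools carry no replicate numbers of their own and the flushed males and females share only number 3. With 2 libraries a group, left-out fits borrow their spread from the other groups. Correction was fitted to these same libraries, so it can also remove differences that happen to follow GC content.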

Other observations

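The vomeronasal receptor genes, whose choice these regulators are tied to, were read from the same fit. Of 282 vomeronasal receptor genes tested, 208 were higher in flushed tissue and 0 lower, with a median log2 difference of 0.85, and after the correction 92 were higher and 4 lower, with a median of 0.29. Their transcripts had a median GC content of 38.9% where a value was known, below that of every regulator. Genes were assigned to this class by name, or by an identifier that is not an Ensembl one (50 of all genes counted). Any of them with no GC value were corrected as genes of median GC content. The correction for low GC content did not reach such genes, and their number among the 282 was not counted. Of all tested genes, 22.6% were higher and 22.9% lower before correction and 11.3 and 11.1% after it.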
